A study of Mus musculus with 6 samples.

Results

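The 9 genes described here encode components of the complement system, and they were taken by name from the 56884 genes of the count table, whose Ensembl identifiers were matched to mouse symbols without their version. Of the 9, 7 belong to the classical pathway (C1qa, C1qb, C1qc, C1ra, C1s1, C2 and C4b) and 2 to the alternative pathway (C3 and Cfb). They were compared between ectopic endometriosis lesions grown from control endometrium (WT, 3 lesions) and from Dnmt3a knockout endometrium (KO, 3 lesions), each sequenced as 1 bulk RNA library. WT donors were Dnmt3a f/f females and KO donors were Dnmt3a f/f:PR-Cre/+ females, all 8 weeks old and given 17β-estradiol daily for 3 days. In KO donors Cre recombinase acts in cells that express the progesterone receptor (PR). In the methods, a 2-mm piece of endometrium was stitched onto the mesentery of a syngeneic C57BL/6J female, 8 weeks old and carrying an estradiol pellet, and lesions were taken on day 21. The sample labels instead describe fragments injected into the peritoneal cavity of wild-type recipients and a time of 4 weeks. Both groups therefore had recipients with intact Dnmt3a, and blood-derived cells of the host that enter a lesion do not carry the deletion.

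Complement is a cascade of secreted proteases and binding proteins that tags microbes, immune complexes and dying cells. In the classical pathway C1q binds the target, its attached proteases C1r and C1s are activated, and C1s cleaves C4 and C2 to assemble a convertase that splits C3. In the alternative pathway C3 fragments pair with factor B to form a second kind of convertase, which amplifies the deposition of C3. Outside the liver, C1q is made mainly by macrophages and dendritic cells, C1r and C1s are made by fibroblasts and other stromal cells, and C3 is a well-known estrogen-induced secretory product of the rodent uterine epithelium.

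The libraries held 45370342 to 57239184 counts. All 7 epithelial and all 8 stromal endometrial marker genes listed passed the filter on low counts. The lesions differed widely in other cell markers: skeletal muscle markers summed to 23260 and 27475 CPM (counts scaled for library size and composition) in WT 1 and WT 3 and to 2.72 to 14.0 CPM in the other 4 lesions, pancreatic acinar markers to 4659 CPM in WT 3, and neutrophil markers to 9862 CPM in WT 2 against 36.1 to 479 CPM elsewhere. Dnmt3a was lower in KO lesions by 0.57 on the log2 scale (SE 0.14, adjusted p = 0.321, edgeR). Every KO lesion lay below every WT lesion for it, as for 8.74% of all tested genes. In DESeq2 its adjusted p was 0.00685, where 6.26% of genes had an adjusted p-value under 0.05. In bulk RNA, fewer cells of a type and less RNA per cell cannot be told apart, which holds for every level given here.

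The 3 chains of C1q lie side by side on the minus strand of chromosome 4 in GRCm38 (GENCODE M21), in the order C1qb, C1qc and C1qa within 18675 bases. C1ra and C1s1 are neighbours on chromosome 6, on opposite strands and 6901 bases apart. C2 and Cfb follow each other on chromosome 17 with 85 bases between them, C4b lies 112491 bases from Cfb, and C3 lies elsewhere on that chromosome. The annotation places C1qb (ENSMUSG00000036905.9) at chr4:136880129-136886187, C1qc (ENSMUSG00000036896.6) at chr4:136889804-136893065 and C1qa (ENSMUSG00000036887.6) at chr4:136895917-136898803. It places C1ra (ENSMUSG00000055172.11) at chr6:124512405-124523443 and C1s1 (ENSMUSG00000038521.18) at chr6:124530345-124542359. On chromosome 17 it places C4b (ENSMUSG00000073418.5) at chr17:34728380-34743882, Cfb (ENSMUSG00000090231.11) at chr17:34856374-34862518, C2 (ENSMUSG00000024371.15) at chr17:34862604-34898265 and C3 (ENSMUSG00000024164.16) at chr17:57203970-57228136. RefSeq promoter windows of 300 bases (250 before to 50 after the start, GRCm38.p6, 5′ to 3′ on the gene's strand) were found for 5 of the 9 genes, and they are printed because 4 of them belong to the classical genes whose levels ran together across the lesions and the last belongs to C3, which ran differently. Capitals mark the matches to the motifs searched. C1s1 had 2 overlapping windows, of which the first is shown. C1qa, C2, C4b and Cfb had no entry.

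C1qb, chr4:136886151-136886450, minus strand: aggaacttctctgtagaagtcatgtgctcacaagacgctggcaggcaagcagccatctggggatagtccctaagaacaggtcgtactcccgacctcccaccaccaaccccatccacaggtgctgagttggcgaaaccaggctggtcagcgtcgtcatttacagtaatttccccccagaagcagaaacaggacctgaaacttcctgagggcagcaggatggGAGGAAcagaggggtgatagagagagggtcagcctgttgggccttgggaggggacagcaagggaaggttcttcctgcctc
C1qc, chr4:136892865-136893164, minus strand: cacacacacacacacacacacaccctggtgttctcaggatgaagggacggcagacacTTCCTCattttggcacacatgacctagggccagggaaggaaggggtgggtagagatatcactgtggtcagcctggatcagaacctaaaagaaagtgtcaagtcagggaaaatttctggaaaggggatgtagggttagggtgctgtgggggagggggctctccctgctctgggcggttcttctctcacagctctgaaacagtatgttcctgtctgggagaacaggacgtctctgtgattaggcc
C1ra, chr6:124512371-124512670, plus strand: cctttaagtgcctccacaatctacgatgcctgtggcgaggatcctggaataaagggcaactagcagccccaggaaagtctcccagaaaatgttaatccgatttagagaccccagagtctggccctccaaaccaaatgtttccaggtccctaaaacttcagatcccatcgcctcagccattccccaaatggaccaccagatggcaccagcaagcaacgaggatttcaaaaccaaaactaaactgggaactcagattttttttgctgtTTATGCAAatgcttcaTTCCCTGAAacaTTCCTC
C1s1, chr6:124542310-124542609, minus strand: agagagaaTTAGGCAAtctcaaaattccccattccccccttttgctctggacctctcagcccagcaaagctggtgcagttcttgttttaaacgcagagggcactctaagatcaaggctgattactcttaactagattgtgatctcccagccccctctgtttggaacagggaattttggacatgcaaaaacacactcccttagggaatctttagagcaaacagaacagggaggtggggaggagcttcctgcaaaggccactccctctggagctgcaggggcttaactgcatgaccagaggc
C3, chr17:57228087-57228386, minus strand: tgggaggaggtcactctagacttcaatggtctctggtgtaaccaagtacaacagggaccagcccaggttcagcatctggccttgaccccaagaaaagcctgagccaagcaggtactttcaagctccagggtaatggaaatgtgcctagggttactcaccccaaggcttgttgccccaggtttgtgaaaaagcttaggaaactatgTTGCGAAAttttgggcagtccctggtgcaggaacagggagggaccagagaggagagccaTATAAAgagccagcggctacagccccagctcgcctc

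The motifs were searched on both strands: TATAAA (the core promoter box), TTCNNNGAA (STAT), the interferon response element (GAAA repeated after 2 free bases), TTGCNNAA (C/EBP), GAGGAA (the core bound by PU.1, a factor of myeloid cells) and the estrogen response element (an inverted repeat of GGTCA with 3 free bases between). C3 held TATAAA at base 15 after the start and TTGCNNAA at base -45. These letters are found in 14.2% and 10.8% of the 27025 promoter windows of the table. GAGGAA was found in C1qb at base -30, in C1qc at base -193 on the reverse strand and in C1ra at base 45 on the reverse strand, and it is present in 28.3% of all windows. C1ra also held TTCNNNGAA at base 33 (8.47% of all windows). TTGCNNAA was found on the reverse strand in C1ra at base 17 and in C1s1 at base -242. The interferon response element, in 3.49% of all windows, and the estrogen response element, in 0.0666%, had no match in these 5 windows. CG dinucleotides, the sites that DNA methyltransferases act on, numbered 6 in the window of C1qb, 3 in C1qc, 5 in C1ra, 1 in C1s1 and 3 in C3, against a median of 7 over all windows. A match describes the letters only, and DNA methylation was not among the measurements used here.

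C1q is the recognition molecule of the classical pathway, and its 3 chains were lower in KO 1 and KO 2 but not in KO 3. C1qa, the A chain, was measured at 242, 498 and 230 CPM in WT 1, 2 and 3 and at 136, 88.1 and 239 CPM in KO 1, 2 and 3. C1qb, the B chain, stood at 263, 525 and 266 CPM in WT lesions against 166, 105 and 272 CPM in KO lesions. C1qc, the C chain, stood at 165, 328 and 143 CPM in WT lesions against 96.6, 63.5 and 165 CPM in KO lesions. For all 3 chains the highest lesion was WT 2, the lowest was KO 2, KO 1 lay below every WT lesion and KO 3 lay within the WT range, so the groups overlapped. The log2 fold change (KO minus WT) was -1.07 for C1qa (SE 0.47, adjusted p = 0.354, edgeR's quasi-likelihood test, Benjamini-Hochberg). It was -0.96 for C1qb (SE 0.44, adjusted p = 0.363) and -0.97 for C1qc (SE 0.47, adjusted p = 0.370), so no chain passed the test. Exact two-sided permutation tests of log2 CPM gave p = 0.2, 0.3 and 0.2 for C1qa, C1qb and C1qc, and no comparison of 3 lesions with 3 can go below 0.1.

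**Figure D1:**
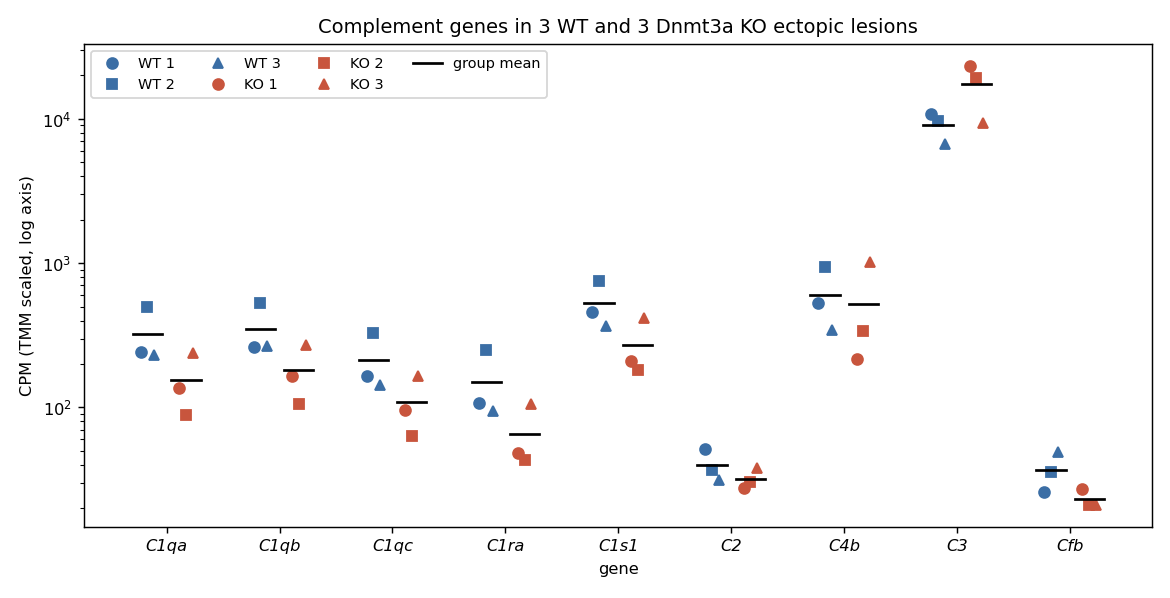
The plot shows the level of each of the 9 complement genes (CPM, log axis) in each lesion, blue for WT and red for KO, with the replicate number given by the marker shape and a black line at each group mean. WT 2 is highest and KO 2 lowest for the C1q chains, C1ra and C1s1, KO 3 lies among the WT lesions for these genes, and C3 is highest in KO 1 at 23243 CPM.

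The chains kept almost the same proportions while their level varied. Per length of transcript, C1qa was 0.857 to 0.992 times C1qb and C1qc was 0.304 to 0.354 times C1qb over the 6 lesions, so each ratio varied by at most 1.16-fold. Over the same lesions C1qa itself varied 5.65-fold, C1qb 5.01-fold and C1qc 5.16-fold between the highest and the lowest. The ratio of C1qa to C1qb did not separate the groups (exact two-sided permutation test, p = 0.2), nor did that of C1qc to C1qb (p = 1).

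C1ra and C1s1 encode the serine proteases that sit on C1q. C1ra was measured at 107, 249 and 94.8 CPM in WT 1, 2 and 3 and at 48.6, 42.9 and 106 CPM in KO 1, 2 and 3. C1s1 stood at 461, 755 and 369 CPM in WT lesions against 210, 183 and 417 CPM in KO lesions. Both showed the order of the C1q chains, with KO 1 and KO 2 below every WT lesion and KO 3 inside the WT range. Their log2 fold changes were -1.19 for C1ra (SE 0.52) and -0.97 for C1s1 (SE 0.42), and the adjusted p was 0.351 for each (edgeR). Exact two-sided permutation tests gave p = 0.2 for both. Per length, C1s1 was 0.441 to 0.609 times C1qb and varied 1.38-fold relative to it (exact two-sided permutation test between the groups, p = 0.9). C1ra shares 40.1% of its 75-base words with its paralog C1rb, and C1s1 shares 12.95% with C1s2, so reads could be split within each pair. C1ra nevertheless held 32.5 to 94.1 counts for each count of C1rb, and C1s1 58.2 to 154 for each count of C1s2.

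C4b and C2 encode the substrates that C1s cleaves, and neither followed the genes of C1 closely. C4b was measured at 527, 945 and 341 CPM in WT 1, 2 and 3 and at 215, 337 and 1015 CPM in KO 1, 2 and 3. KO 1 and KO 2 were again below every WT lesion, but KO 3 held the highest C4b of all lesions. Its log2 fold change was -0.21 (SE 0.67, adjusted p = 0.893, edgeR; exact permutation p = 0.7), and its sign turned with the lesion left out, from -1.13 without KO 3 to 0.27 without WT 2. C2 stood at 51.6, 36.6 and 31.4 CPM in WT lesions against 27.8, 30.5 and 38.1 CPM in KO lesions. It varied only 1.86-fold between its highest and lowest lesion, with a log2 fold change of -0.31 (SE 0.23, adjusted p = 0.524, same test; exact permutation p = 0.4). With 1 lesion left out, the fold change of C2 ranged from -0.48 (without WT 3) to -0.08 (without WT 1). C4b shares 22.7% of its 75-base words with C4a, which had 1 count for every 166 to 203 counts of C4b.

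C3 encodes the central component on which all complement pathways converge, and of the 9 genes it was the one with higher levels in KO lesions. It was measured at 10713, 9715 and 6666 CPM in WT 1, 2 and 3 and at 23243, 19254 and 9357 CPM in KO 1, 2 and 3. KO 1 and KO 2 lay above every WT lesion and KO 3 lay inside the WT range, so the groups overlapped here too. WT lesions averaged 9031 ± 2108 CPM and KO lesions 17285 ± 7149 CPM (mean ± SD, n = 3 each). This gave a log2 fold change of 0.94 (SE 0.44, adjusted p = 0.366, edgeR; exact two-sided permutation p = 0.3). C3 alone took 1.02%, 0.951% and 0.631% of all counts in WT 1, 2 and 3 and 2.31%, 2.02% and 0.978% in KO 1, 2 and 3.

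Cfb encodes factor B, the partner of C3 in the alternative convertase, and it was lower in KO lesions. It was measured at 25.9, 35.8 and 49.1 CPM in WT 1, 2 and 3 and at 27.1, 21.1 and 21.2 CPM in KO 1, 2 and 3. Unlike the C1 genes, it was below the WT range in KO 3 as well as in KO 2, while KO 1 lay just above the lowest WT lesion. The log2 fold change was -0.67 (SE 0.26, unadjusted p = 0.0423, adjusted p = 0.332, edgeR; exact permutation p = 0.2). The unadjusted call was lost without WT 2 (log2 fold change -0.70), WT 3 (-0.44), KO 2 (-0.61) or KO 3 (-0.61), under upper quartile scaling (-0.58), in limma voom (-0.62) and with the replicate number as a block (-0.64). In the annotation, 79.5% of the exonic bases of Cfb and 42.8% of those of C2 also belong to the readthrough transcript Gm20547 on the same strand. Gm20547 had 0 counts in all 6 lesions, and how reads in the shared exons were assigned was not tested. Had such reads not been counted, and with even coverage of the exons, levels per length would be understated by about 4.88-fold for Cfb and 1.75-fold for C2 in every lesion, and C3 relative to Cfb overstated by as much.

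Counted over the 9 genes, 0 passed an unadjusted p-value under 0.05 together with a log2 fold change below -1 or above 1, against 5.85% lower and 3.1% higher of the 18177 tested genes. With the unadjusted p-value alone, 1 gene (Cfb) was lower and 0 were higher, against 8.16% and 6.55% of all genes. By that rule upper quartile scaling turned the totals over all genes from 1484 lower and 1190 higher to 1179 and 1945. No member had an adjusted p-value under 0.05 in edgeR, where 0.0055% of all genes did, and none did in DESeq2, where 5 members were lower and 1 higher at an unadjusted p-value under 0.05 (10.9% and 9.35% of all genes). For none of the 9 did the groups separate, whereas every KO lesion lay below every WT lesion for 8.74% of tested genes and above for 10.7%. The median log2 fold change was -0.97 over the 7 classical genes and 0.01 over all tested genes.

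KO 3 stood apart from KO 1 and KO 2. KO 1 lay below the WT range for 7 of the 9 genes and KO 2 for 8, against 31.1% and 30.7% of all tested genes, and C3 lay above it in both (34.1% and 34.6% of all genes). KO 3 lay below it for 1 gene, Cfb, and within it for 7, while C4b lay above it. In that lesion 21.7% of all genes were below and 24.9% above the WT range. With KO 3 left out, C1qa, C1qb, C1qc, C1ra and C1s1 were lower by 1.38 to 1.72 on the log2 scale and passed the combined threshold, and C3 passed it in the other direction at 1.24. In the same fit the share of all tested genes past that threshold also went up, to 8.66% lower and 5.36% higher. With WT 2 left out, the same 5 classical genes were at -0.62 to -0.51 and none passed. These leave-one-out fits still gave no member an adjusted p-value under 0.05 in edgeR.

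**Figure D2:**
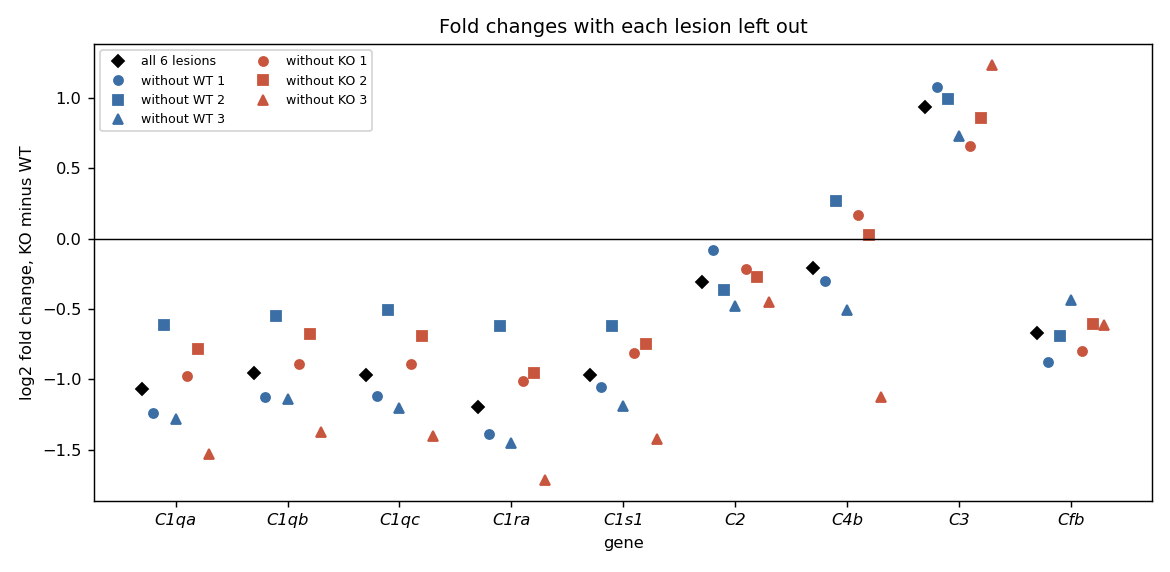
Points show the edgeR log2 fold change (KO minus WT) of each of the 9 genes with all 6 lesions (black diamonds) and after removal of 1 lesion (blue for a WT lesion, red for a KO lesion). Leaving out KO 3 or WT 2 moves the C1 genes most, C4b crosses 0, and C3 stays between 0.66 and 1.24.

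Relative to C1qb, C4b and Cfb, C3 was highest in KO 1 and KO 2. Per length, C3 was 8.62, 3.91 and 5.31 times C1qb in WT 1, 2 and 3 and 29.7, 38.8 and 7.28 times C1qb in KO 1, 2 and 3, where KO 3 lay within the WT range (exact two-sided permutation test, p = 0.2). C3 was 227, 149 and 74.5 times Cfb in WT and 471, 501 and 243 times Cfb in KO lesions. This ratio was higher in each KO lesion than in any WT lesion, which gives an exact permutation p of 0.1, the lowest attainable. C3 relative to C4b was 22.5, 11.4 and 21.6 in WT and 119, 63.3 and 10.2 in KO lesions, so KO 3 had the lowest value of all (p = 0.4, same exact test).

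Per length of exon (RPKM), C3 was far above the other genes, with a mean of 1756 in WT and 3361 in KO lesions. In WT lesions C1qb (323), C1qa (311), C1s1 (169), C1qc (110), C4b (106) and C1ra (50.5) followed, and neighbours in this order overlapped between lesions. Cfb (13.1) and C2 (10.3) were lowest and overlapped with each other, while every WT lesion had more C1ra than any had Cfb, subject to the limit given for the exons that Cfb and C2 share with Gm20547. In KO lesions the order was C3, C1qb (166), C1qa (148), C4b (91.7), C1s1 (86.3), C1qc (56.1), C1ra (22.1), C2 (8.30) and Cfb (8.19). There, too, neighbours overlapped except at C3 and between C1ra and C2.

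Marker genes of the cells known to make these components also differed between the lesions. The 10 macrophage markers, all tested, summed to 2047, 6586 and 2931 CPM in WT 1, 2 and 3 and to 1702, 1367 and 2864 CPM in KO 1, 2 and 3. Of the 10, 9 had a lower level in KO lesions and 1 (Cd14) passed the unadjusted threshold, with a median of -0.84 on the log2 scale. Lymphocyte markers were also highest in WT 2 and lowest in KO 2, with sums over 6 T cell markers of 28.1, 80.3 and 30.1 CPM in WT 1, 2 and 3 and 7.35, 5.01 and 22.1 CPM in KO 1, 2 and 3. Of these 6, 5 were lower at the unadjusted threshold, as were 3 of 3 B cell markers (3.76 to 47.9 CPM summed in WT, 1.03 to 2.58 CPM in KO lesions) and 4 of 7 tested neutrophil markers. Over all tested genes 8.16% were lower at that threshold. No T cell, B cell or neutrophil marker had an adjusted p-value below 0.321 in edgeR. The 3 C1q chains summed to 0.205 to 0.327 of the macrophage sum in WT and to 0.188 to 0.236 in KO lesions (exact two-sided permutation test, p = 0.6). The stromal markers, 6 of 8 lower, summed to 8174 to 9900 CPM in WT, to 4837 and 3344 CPM in KO 1 and KO 2 and to 11328 CPM in KO 3, a sum carried mostly by Col1a1, Col1a2 and Dcn. The 2 higher stromal markers, the uterine transcription factors Hoxa11 (log2 fold change 1.05) and Hand2 (1.02), were named after their values were seen. Only they among the stromal markers passed the combined threshold, which 3.1% of all tested genes passed upward. Each KO lesion exceeded each WT lesion for both, as for 10.7% of all tested genes. The part of macrophage, other immune or stromal cell number in the levels of C1q, C1ra and C1s1 was not tested.

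For C3, 6 of 7 epithelial markers were higher in KO lesions with 0 past the threshold, and they summed to 1531 to 2311 CPM in WT lesions, 2862 and 2692 CPM in KO 1 and KO 2 and 1449 CPM in KO 3. Of the 4 estrogen-induced secretory genes of the epithelium 3 were higher, and their sum was 26123, 16256 and 24521 CPM in WT lesions against 47987, 35415 and 23101 CPM in KO lesions. C3 was 0.429 to 0.983 times Ltf, the lactoferrin gene, in WT and 0.597 to 0.755 times in KO lesions (CPM over CPM, exact two-sided permutation test, p = 0.8). Hepatocytes are the main source of plasma C3, and the 7 hepatocyte markers summed to 1.86 to 5.30 CPM. The part of epithelial content in the level of C3 was not tested. The 12 interferon-induced genes listed were lower in KO lesions without overlap, all 12 at an unadjusted p-value under 0.05 in edgeR, against 8.74% and 8.16% of all tested genes. Their adjusted p-values were 0.321 to 0.328 in edgeR. They summed to 636 to 1165 CPM in WT and 351 to 403 CPM in KO lesions. In KO 3 these genes and Cfb were below the WT range, and the C1q chains were within it. In KO 1 these genes were below the WT range too, but Cfb was within it. A link between Cfb and these genes was not tested.

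**Figure D3:**
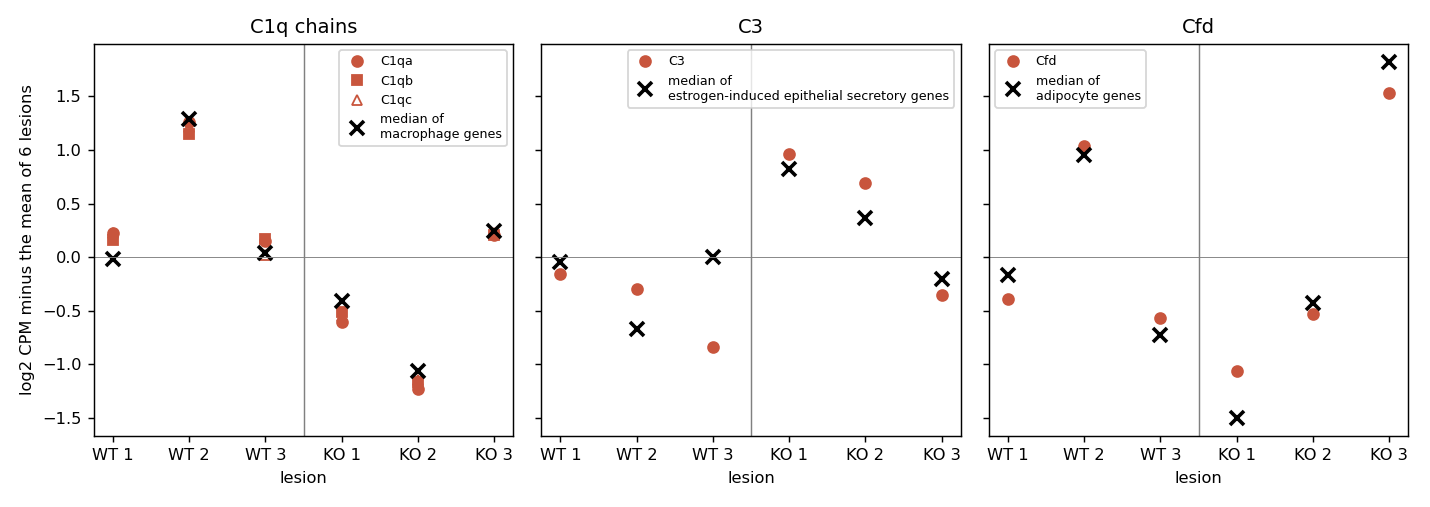
Each panel gives, per lesion, the log2 CPM minus its mean over the 6 lesions for complement genes (red) and the median of a marker list (black crosses): C1q chains with macrophage genes, C3 with estrogen-induced epithelial secretory genes, and Cfd with adipocyte genes. The crosses follow the red points, from WT 2 high and KO 2 low for C1q to KO 3 high for Cfd, and they depart most for C3 in WT 3.

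The genes whose centred log2 CPM was most like that of a member were sought among 10340 genes with a mean of at least 10 CPM, as the smallest root mean square difference over the 6 lesions. For C1qb they included Pld4 (0.0802) and Sdc3 (0.0860). For C3 they were Arhgap39 (0.131), Slc52a2 (0.151) and Ikzf3 (0.158), and for Cfb they included Endod1 (0.101) and Hbegf (0.145). These are descriptions of 6 lesions, in which genes of 1 library share its tissue makeup.

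Of 53 complement genes listed by role, 45 were tested. Over all tested genes 48.6% were lower in KO lesions, and of these 45 genes 30 were lower and 15 higher. Their median was -0.43 on the log2 scale. At an unadjusted p-value under 0.05, 3 were lower (Cfb, C1rb and Colec11) and 3 higher, among them Colec10 and C4bp, where 8.16% and 6.55% of all tested genes were. Of these, 2 were lower and 2 higher by more than 1 on the log2 scale, against 5.85% and 3.1% of all tested genes, and 0 had an adjusted p-value under 0.05 in edgeR. Each of these 5 named genes lost the unadjusted call in edgeR when at least 3 of the lesions were left out in turn, among them WT 2 or WT 3. In those left-out fits, the log2 fold change of C4bp was still 1.52 to 1.78, that of Colec10 1.47 to 1.84 and that of Colec11 -1.22 to -1.02. In DESeq2, C4bp passed (adjusted p = 0.0352), where 6.26% of genes did.

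**Figure D4:**
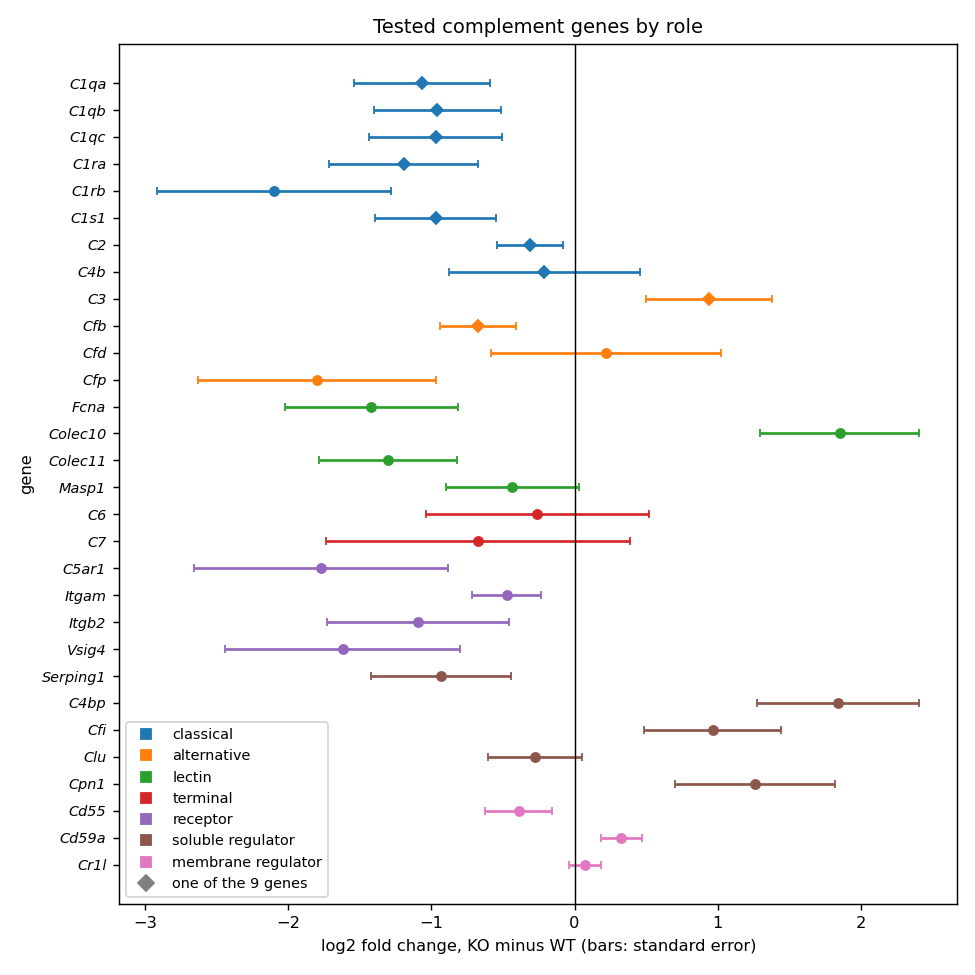
Points show the edgeR log2 fold change (KO minus WT) of tested complement genes named in the text and bars its standard error, coloured by role, with diamonds for the 9 genes described here. The classical genes lie below 0, the soluble regulators lie on both sides, and 0 of the 45 tested genes have an adjusted p-value under 0.05.

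All 10 classical genes had a log2 fold change below 0, where 48.6% of all tested genes did, although C4a and C4b were highest in KO 3. The C1r paralog C1rb fell by 2.10 on the log2 scale (SE 0.82) at an unadjusted p-value under 0.05. C1rb was measured at 1.52, 7.68 and 1.17 CPM in WT lesions against 0.614, 0.675 and 1.13 CPM in KO lesions. The groups did not overlap, as for 8.74% of all tested genes with KO below WT, but KO 3 held 54 counts and WT 3 held 55. The call for C1rb was lost without WT 2 (-0.74), KO 1 (-1.94), KO 2 (-1.99) or KO 3 (-2.42). In the alternative pathway, Cfd, the protease that cleaves factor B and an abundant product of fat cells, stood at 666, 1795 and 592 CPM in WT lesions against 418, 605 and 2532 CPM in KO lesions. Its log2 fold change was 0.22 (SE 0.81) and ranged from -0.99 without KO 3 to 0.92 without WT 2. Adipocyte markers, 4 of 5 higher, summed to 729 to 2269 CPM in WT and were 391, 718 and 3280 CPM in KO lesions, and Cfd was 3.68 to 5.75 times Adipoq over the 6 lesions. The share of fat tissue in the level of Cfd was not tested. Cfp, the stabiliser of the alternative convertase called properdin, stood at 221 CPM in WT 2 and 14.8 to 52.9 CPM in the other lesions. It was singled out after its values were seen (log2 fold change -1.80, and -0.57 without WT 2).

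Among lectin pathway genes, Colec11, a collectin that recognises sugars, fell by 1.30 on the log2 scale at an unadjusted p-value under 0.05, from 0.769 to 1.92 CPM in WT to 0.437 to 0.834 CPM in KO lesions. Its relative Colec10 rose by 1.85 at the same threshold but was below 1 CPM in every lesion, with 4 to 8 counts in WT and 12 to 34 in KO lesions. Fcna, the pattern receptor ficolin A, was 11.1 to 59.0 CPM in WT lesions against 9.61 to 16.0 CPM in KO lesions (log2 fold change -1.42, and -0.62 without WT 2), and Masp1, a lectin pathway protease, had -0.43 (0.02 without WT 1). Of the terminal genes, C6 and C7, parts of the membrane attack complex, differed by -0.26 and -0.67 with standard errors of 0.78 and 1.06 and changed sign without WT 2 (0.26 and 0.36), and 0 of the 4 tested passed the unadjusted threshold.

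Soluble regulators went in both directions. C4bp, which inhibits the classical convertase, stood at 7.77, 3.51 and 5.25 CPM in WT lesions against 24.4, 27.7 and 7.19 CPM in KO lesions. It rose by 1.84 (SE 0.57) at an unadjusted p = 0.0173 in edgeR, and KO 3 lay within the WT range.

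Other regulators were singled out after their values were seen. Cfi, the protease that inactivates C3b and C4b, was 62.6 to 144 CPM in WT lesions against 273, 261 and 98.7 CPM in KO 1, 2 and 3. Cpn1, the catalytic chain of the carboxypeptidase that trims anaphylatoxins, was 10.3 to 19.7 CPM in WT lesions against 48.6, 36.5 and 11.6 CPM in KO lesions. Both thus stood higher in the KO lesions in which C3 was high, with log2 fold changes of 0.96 and 1.26, and neither passed the unadjusted threshold. Serping1, the inhibitor of C1r and C1s, stood at 593, 1076 and 520 CPM in WT lesions against 253, 255 and 639 CPM in KO lesions and kept 1.62 to 2.06 times the level of C1s1 per length in the 6 lesions (exact two-sided permutation test, p = 1). Clu, a soluble inhibitor of the membrane attack complex, differed by -0.27 (SE 0.33). It was at -0.52 without WT 2, -0.01 without WT 3 and -0.59 in limma voom.

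**Figure D5:**
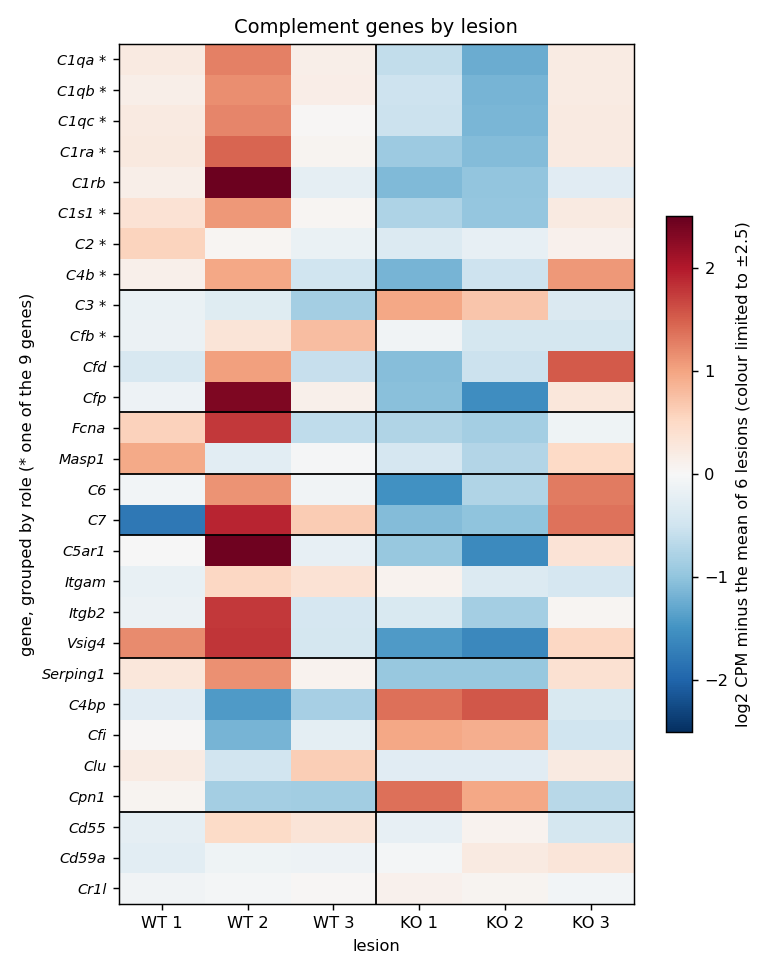
Colours give the log2 CPM minus its mean over the 6 lesions (red higher, blue lower, limited to ±2.5) for complement genes named in the text with a mean of at least 1 CPM, in blocks by role, with stars at the 9 genes described here. The C1q chains, C1ra, C1s1 and Serping1 are red in WT 2 and blue in KO 1 and KO 2, C3, C4bp, Cfi and Cpn1 are red in KO 1 and KO 2, and C4b and Cfd are red in KO 3.

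Of the 8 complement receptors, 7 were lower and 0 passed the unadjusted threshold. Itgam and Itgb2, the chains of complement receptor 3 on myeloid cells, differed by -0.47 (SE 0.24) and -1.09 (SE 0.63), and Itgb2 was at -0.06 without WT 2. C5ar1, the receptor for C5a, was singled out after its values were seen: it was 187 CPM in WT 2 and 11.4 to 44.2 CPM elsewhere, with a log2 fold change of -1.77, and -0.39 without WT 2, the lesion with the most neutrophil markers. Vsig4, a C3b receptor of resident macrophages chosen in the same way, was 1.75 to 8.37 CPM in WT and 0.755 to 3.46 CPM in KO lesions (-1.62). Of the 8 membrane regulators, 3 were lower and 5 higher, and 0 passed the unadjusted threshold. Cd55, which speeds the decay of convertases, differed by -0.39 (SE 0.24) and Cr1l, the rodent regulator Crry, by 0.07 (SE 0.11). With 1 lesion left out, Cd55 ranged from -0.57 to -0.24 and Cr1l from 0.04 to 0.13. Cd59a, an inhibitor of the membrane attack complex also chosen after its values were seen, was 23.0 to 25.6 CPM in WT and 26.7 to 33.8 CPM in KO lesions. Every KO lesion thus lay above every WT lesion, as for 10.7% of all tested genes. Its log2 fold change of 0.33 did not pass the unadjusted threshold in edgeR.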

How the data were processed

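RNA of 3 WT and 3 KO lesions was sequenced from stranded mRNA libraries. The deposited values are raw counts per gene, and each sample's own file equals its column of the series table. The authors trimmed reads with Trimmomatic and counted with featureCounts, per the labels, which name GRCm39, whereas the study's methods name GRCm38. The aligner and annotation release are not given in the sources used here. Symbols (51948 of 56884 identifiers), coordinates and exon lengths came from GENCODE M21. Identifiers without a symbol held 3.04% to 3.56% of counts. Of counts under 50, 88.0% to 89.5% were even, which is what counting both mates of a pair gives, so halved counts were also fitted, an alternative chosen after seeing the data.

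Genes kept by filterByExpr (18177) were fitted with edgeR 4.0.16 in R 4.3.3 (TMM scaling, quasi-likelihood test, genotype only), with Benjamini-Hochberg adjustment over all of them. The combined threshold follows the study: unadjusted p below 0.05 with a log2 fold change beyond 1 in either direction. CPM used TMM factors without a prior count, and exact permutation tests used log2 CPM with a prior count of 2. RPKM were computed from CPM and exon length. Alternatives were other scalings and filters, DESeq2 1.42.0, limma 3.58.1 voom with sample weights, a block for the replicate number and each lesion left out. On simulated counts for KO against WT (17832 genes), edgeR found 29% of genes changed by 1.5 on the log2 scale at an adjusted p-value under 0.05 and 94% of those changed by 3. The changed genes had a mean of at least 10 CPM, and each gene was drawn independently. Changed genes of lower level and differences in tissue content between lesions were not simulated. P-values rest on the spread between lesions, and nothing in the labels says whether lesions shared a donor. The 9 genes, the gene lists and the naming rule were chosen with earlier results of these data known. By that rule the text names the 9 genes, other complement genes that passed the unadjusted threshold or had the 2 highest levels in their role, Dnmt3a, and the 3 genes most like C1qb, C3 and Cfb. A few genes that meet the rule are not reported here.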

Additional observations from a re-analysis of the deposited data

How the results depend on the processing

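Under 13 alternatives and halved counts, 123 of 126 values of the 9 genes kept their sign, and the 3 exceptions were C4b without WT 2 (0.27), KO 1 (0.17) and KO 2 (0.03), within a range of -1.13 to 0.27. For 0 of the 126 was the adjusted p-value below 0.05 in its own tool (edgeR, DESeq2 or limma), and the lowest was 0.081 for C3 in limma voom. The number of the 9 genes lower past the combined threshold was 0, and became 1 without a filter beyond 1 count, 2 in DESeq2 and 2 in limma voom, and the number higher went from 0 to 1 in limma voom. With 1 lesion left out these ranged from 0 to 5 lower and from 0 to 1 higher, and the upper ends came without KO 3. Over all tested genes the share lower, 5.85% at first, was 5.45% without the filter, 7.43% in DESeq2, 8.38% in limma voom and 8.66% without KO 3, and the share higher went from 3.1% to 4.7% in limma voom and 5.36% without KO 3. Over the complement list, the 2 lower genes became 4 without the filter, 10 in DESeq2 and 8 in limma voom, and ranged from 0 (without WT 2, KO 1 or KO 2) to 13 (without KO 3) with lesions left out, with 4 without WT 3. The 2 higher genes became 1 with at least 10 counts in every library, 5 in limma voom and 1 with halved counts, and ranged from 0 (without WT 3) to 4 (without KO 3), with 1 without WT 2, KO 1 or KO 2. Signs also turned for Cfd (-0.19 in limma voom, -0.99 to 0.92 with lesions left out), Masp1 (-0.88 to 0.023, the latter without WT 1), C6 (-1.52 to 0.26) and C7 (-1.96 to 0.36). The causes of these changes were not tested.

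With the replicate number as a block, the complement list had 1 lower gene, Cfb no longer passed the unadjusted threshold, Cfd turned to -0.13, and calls over all genes went from 1064 lower and 564 higher to 573 and 372. Deviations of same-numbered lesions correlated at 0.03, -0.15 and -0.20, and no lesion correlated best with its own number. Because the tissue content of the lesions differed widely, these correlations cannot tell whether same-numbered lesions shared a donor or a day. With 3 lesions a group, a gene that misses the adjusted threshold is not shown to be equal in both groups, and left-out fits assume that the 2 lesions that remain vary like the other group.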
